A study of Mus musculus with 20 samples.

Results

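The 10 genes described here are *Pou5f1*, which encodes the transcription factor Oct4, and 9 genes that pluripotent cells use in both the naive and the primed state: *Sall4*, *Sall1*, *Trim28*, *Utf1*, *Dppa2*, *Dppa4*, *Dppa5a*, *Tdgf1* and *L1td1*. They were taken by symbol from an RNA-seq table of 29692 genes, in which each of the 10 was listed once. The study separated cultured mouse embryonic stem cells, kept in 10% fetal serum with leukemia inhibitory factor, by flow cytometry on their Nanog and Sox2 levels. State 3 held cells with little of either factor, state 2 held cells with little Nanog but much Sox2, state 1 held cells with much of both, and the total population completed the set. The sources used here name no cell line or genotype and no way of detecting the sorted factors. Each group had 3 rRNA-depleted RNA-seq libraries, 12 in all, which the authors merged into 1 value per gene and group, so the values carry no SD.

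Naive pluripotency is the state of the pre-implantation epiblast, and primed pluripotency is that of the epiblast after implantation. Oct4 binds DNA with Sox2 at many pluripotency enhancers, and embryonic stem cells that lose it leave the pluripotent state. Oct4 is kept in both states. Sall4 and Sall1 are zinc finger factors that recruit the NuRD repressor complex, Trim28 is the corepressor of KRAB zinc finger proteins, and Dppa2 and Dppa4 bind CpG-rich promoters as a pair.

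A difference between groups was called where the authors' deposited EBSeq posterior probabilities summed to at least 0.95 over all patterns that set the groups apart. EBSeq is a model that weighs the spread between libraries of a group. The sums were made here. Values are normalized signals on the authors' scale and are not corrected for gene length, so levels are compared between groups and not between genes. Log2 ratios are of the value plus 1.

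The column totals lay between 16.9 and 17.7 M value units, for an estimated 48.0 to 60.4 M reads or read pairs per group. The least abundant value of any of the 10 genes, 1022 for *Dppa2* in state 3, stood for about 2839 reads, for a counting SD of 1.88%. Counting error therefore adds little to the RNA-seq values of the 10 genes, while the spread between libraries is not shown in the table. It is larger for the low values of other genes given below. The sort genes followed their labels at the RNA level: *Nanog* had 440.0 in state 3, 743 in state 2 and 4145 in state 1, and *Sox2* had 1306 in state 3, 3167 in state 2 and 4155 in state 1. All 10 genes were listed at 1022 or more in every group. Genes of other cell types moved with the states. The 9 fibroblast genes, *Col1a1*, *Col3a1* and *Dcn* among them, summed to 1242 in state 3, 249 in state 2, 146 in state 1 and 247 in the total population. In state 3 relative to state 1, *Col1a1*, *Col1a2* and *Col3a1* rose, 0 fell and 6 were not called, where 20.4% of all genes were called, 11.4% as higher. *Lum* was at 0 in state 2 and *Dcn* was at 0 in state 1. The 7 primitive endoderm genes summed to 675 in state 3, 380 in state 2, 133 in state 1 and 204 in the total population, with none at 0. Of these, *Foxa2*, *Dab2*, *Sox17*, *Pdgfra* and *Gata4* rose in state 3 relative to state 1, 0 fell and 2 were not called, beside the same shares of all genes. The 9 trophectoderm genes summed to 9719 in state 3, 2707 in state 2, 1316 in state 1 and 2129 in the total population, most of it from the keratins *Krt8* and *Krt18*. *Cga* was at 0 in state 3 and *Elf5* in state 2. The part of such cells in the differences below was not tested, and in bulk samples fewer cells of a type and less RNA per cell cannot be told apart.

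**Figure D1:**
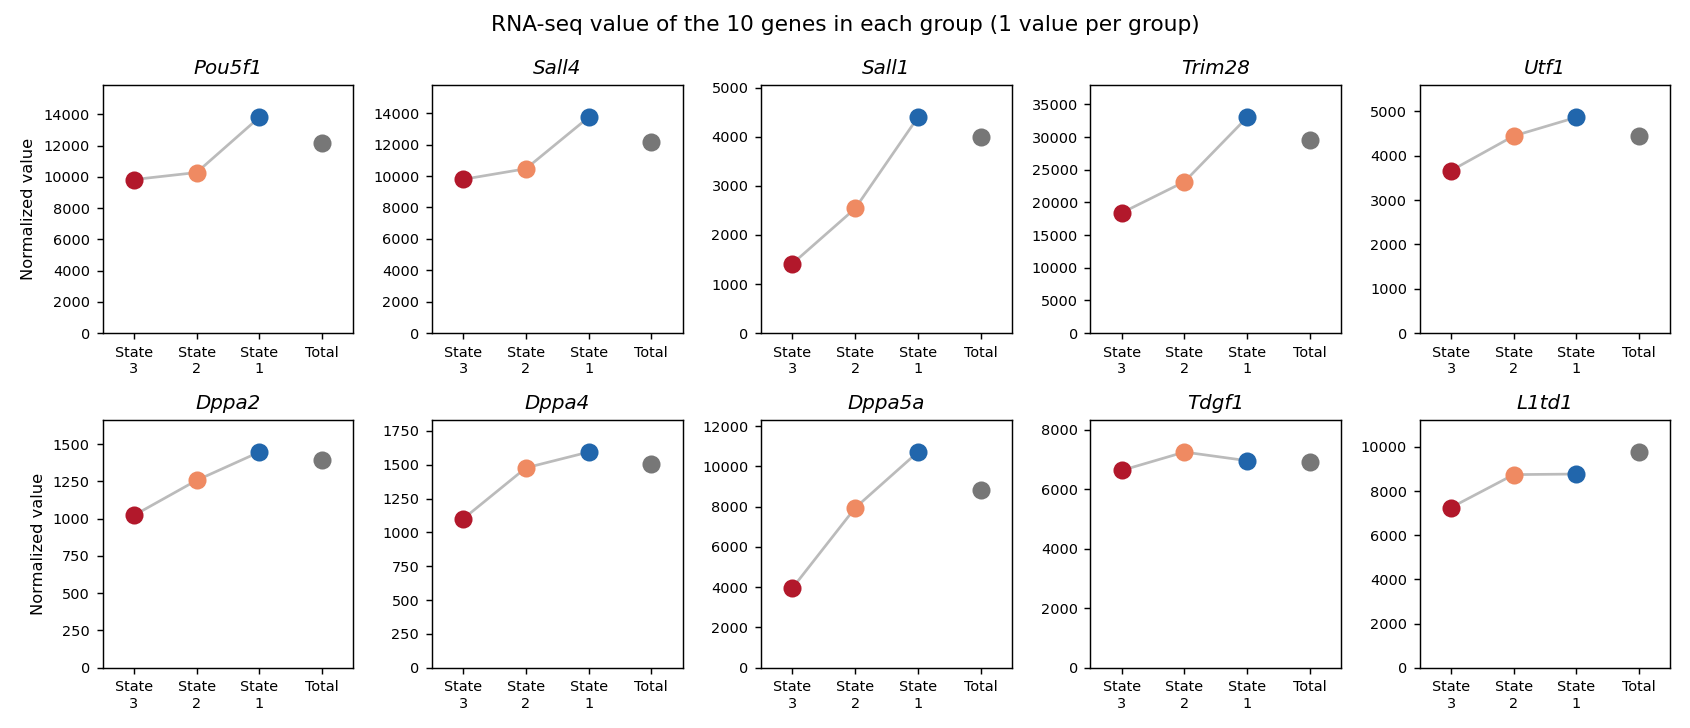
Normalized RNA-seq value (vertical axes, from 0, authors' units) of each of the 10 genes in state 3, state 2, state 1 and the total population (horizontal axes). Each point is the deposited value of a group and carries no error bar. State 3 is the lowest of the 3 sorted states for every gene, by a wide margin for *Sall1* (1416 in state 3, 4400.2 in state 1) and hardly at all for *Tdgf1* (6630.1 in state 3, 6956 in state 1).

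*Pou5f1* (ENSMUSG00000024406.16, chromosome 17, 35506032 to 35510777 in GRCm38) kept most of its RNA in both Nanog-low states. It had a value of 9826 in state 3, 10275 in state 2, 13810.4 in state 1 and 12174 in the total population. State 3 and state 2 lay close together, state 1 was the highest, and state 3 held 71.1% of the state 1 value. The log2 ratio of state 2 to state 1 was -0.43 (posterior 0.927), that of state 3 to state 2 was -0.06 (posterior 0.00515) and that of state 3 to state 1 was -0.49 (posterior 0.931). None of these was called. At a looser limit of 0.90 *Pou5f1* was called lower in state 2 than in state 1, where 14.6% of all genes were called, and lower in state 3 than in state 1, where 21.7% were. The favoured pattern joined state 3 with state 2 and state 1 with the total population, at 0.915, against 0.0690 for no difference at all. *Nanog*, read from the same libraries, had a log2 ratio of state 3 to state 1 of -3.23, and *Sox2* had one of -1.67. Both were called lower, but the cells were sorted on these factors, so they are no independent yardstick. Among the 3300 genes with a mean of at least 1000, a limit added after the data were seen, the median was -0.10. Of these genes 13.4% had a lower ratio than *Pou5f1*.

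The promoter of *Pou5f1* is shown with those of *Trim28*, which was lower in both Nanog-low states, and *Tdgf1*, whose values changed least. The sequences are RefSeq windows (GRCm38.p6) from 250 bases before to 50 bases after the start of transcription, and capitals mark GGGCGG, the GC box, on either strand and AGGTCA, a nuclear receptor half-site. The *Pou5f1* window is chr17:35505782-35506081 on the plus strand, that of *Trim28* chr7:13023902-13024201 on the plus strand and that of *Tdgf1* chr9:110946109-110946408 on the minus strand.
Pou5f1: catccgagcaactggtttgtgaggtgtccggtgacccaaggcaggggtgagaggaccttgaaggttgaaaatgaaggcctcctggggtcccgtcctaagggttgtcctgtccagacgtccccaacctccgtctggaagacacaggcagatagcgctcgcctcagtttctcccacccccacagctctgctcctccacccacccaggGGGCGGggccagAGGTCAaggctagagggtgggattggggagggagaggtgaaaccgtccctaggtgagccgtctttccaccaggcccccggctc
Trim28: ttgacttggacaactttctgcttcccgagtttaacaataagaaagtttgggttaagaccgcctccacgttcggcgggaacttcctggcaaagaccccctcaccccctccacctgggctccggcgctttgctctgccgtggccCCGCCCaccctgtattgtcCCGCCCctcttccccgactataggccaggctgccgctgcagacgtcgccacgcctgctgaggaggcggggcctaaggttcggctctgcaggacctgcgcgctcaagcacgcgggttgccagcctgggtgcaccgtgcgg
Tdgf1: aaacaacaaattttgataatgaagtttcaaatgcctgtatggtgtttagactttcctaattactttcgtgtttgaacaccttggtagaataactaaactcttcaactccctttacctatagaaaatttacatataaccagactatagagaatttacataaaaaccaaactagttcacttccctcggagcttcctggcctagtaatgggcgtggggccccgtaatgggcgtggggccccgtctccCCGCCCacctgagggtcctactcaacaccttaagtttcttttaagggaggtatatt

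This *Pou5f1* window, the upstream one of a pair in RefSeq, held a GC box that starts at -45 and a half-site that starts at -33, and 11 CpG. The *Trim28* window held GC boxes at -108 and -89 on the opposite strand and 23 CpG, and the *Tdgf1* window held a GC box at -6 on the opposite strand and 7 CpG, the median of all windows. A RefSeq window was found for 6 of the 10 genes, with 9 windows in all. The octamer ATGCAAAT to which Oct4 binds was in 0 of these 9 windows on either strand, and in 1.74% of all 32851 windows. The Oct-Sox composite motif was in 0 of the 9 and in 0.0761% of all windows, and TATAAA was in 0 of the 9 and in 13.6% of all windows. GGGCGG, searched after the windows had been seen, was in 6 of the 9 windows, of *Pou5f1*, *Sall1*, *Tdgf1*, *Trim28* and *Utf1*, and in 35.7% of all windows. AGGTCA, likewise added, was in the *Pou5f1* window alone among the 9 and in 16.3% of all windows. These matches describe letters and do not show binding, and the motifs do not overlap in the printed windows.

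*Sall4* (ENSMUSG00000027547.17, chromosome 2, 168748332 to 168767201), a Spalt zinc finger factor that binds AT-rich DNA and acts with Oct4, had nearly the same profile as *Pou5f1*. Its value was 9789 in state 3, 10464 in state 2, 13739.8 in state 1 and 12171 in the total population. State 3 and state 2 again lay together below state 1. The log2 ratio of state 2 to state 1 was -0.39 (posterior 0.579) and that of state 3 to state 1 was -0.49 (posterior 0.593), and neither was called. The authors' model gave 0.565 to the pattern favoured for *Pou5f1* and 0.407 to no difference, so it does not settle between them. The lncRNA locus *Gm14261* overlaps the span of *Sall4* and was listed at 11.1 in state 3 and 17.5 in state 1.

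*Sall4* was also among the 5 genes of 9697 whose profile lay closest to that of *Pou5f1*. Likeness was the root mean square difference of log2 profiles over the 4 groups, each centred on its own mean. The 5 were *Ccdc130* at 0.00850, *Sde2* at 0.0114, *Cdr2l* at 0.0133, *Sall4* at 0.0136 and *Idh3g* at 0.0139. These differences are small, and whether the order would hold over single libraries could not be checked. By the largest difference in any group *Ccdc130*, *Idh3g*, *Sde2* and *Cdr2l* were again among the 5, and *Sall4* ranked 7. By root mean square difference the other members ranked lower. *Dppa2* ranked 1273 (0.0967), *Utf1* 1740 (0.113), *Dppa4* 2599 (0.139), *Trim28* 2944 (0.149) and *L1td1* 3269 (0.159). *Tdgf1* ranked 4400 (0.195), *Dppa5a* 7741 (0.395) and *Sall1* 8309 (0.476).

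*Sall1* (ENSMUSG00000031665.7, chromosome 8, 89027242 to 89044162), the paralog of *Sall4*, changed most of the 10. It had 1416 in state 3, 2541 in state 2, 4400.2 in state 1 and 3990.1 in the total population. The value was lower at each step of the sort, and state 3 held 32.2% of state 1. *Sall1* fell in state 2 against state 1 (log2 -0.79), in state 3 against state 2 (log2 -0.84) and in state 3 against state 1 (log2 -1.64), each with a posterior of 1.00. It was the only gene of the 10 called in all 3 comparisons of sorted states. The 2 other Spalt genes split. *Sall2* rose to 1704 in state 3, against 449.8 in state 1 (log2 1.92). *Sall3* fell to 191 in state 3, against 383 in state 1.

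*Trim28* (ENSMUSG00000005566.14, chromosome 7, 13024152 to 13031032), which is brought to DNA by KRAB zinc finger proteins and recruits Setdb1 and heterochromatin proteins to silence retroviral elements, fell in both Nanog-low states. It had 18402 in state 3, 23162 in state 2, 33028 in state 1 and 29581 in the total population. State 1 and the total population were the high groups, and state 3 held 55.7% of state 1. It fell in state 2 against state 1 (log2 -0.51, posterior 0.991) and in state 3 against state 1 (log2 -0.84, posterior 1.00). State 3 against state 2 was not called (log2 -0.33, posterior 0.0293), and the pattern that joins these states had a posterior of 0.971.

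*Utf1* (ENSMUSG00000047751.9, chromosome 7, 139943856 to 139945112), a chromatin-bound factor and a known target of Oct4 and Sox2, had 3665 in state 3, 4447 in state 2, 4868 in state 1 and 4437 in the total population. Over the sorted states the order followed that of *Pou5f1*, with state 3 at 75.3% of state 1. The log2 ratio of -0.41 for state 3 against state 1 was not called (posterior 0.0144), and the model gave 0.985 to equal groups. Size and posterior do not run together in this table: *Kdm1a*, named after its values were seen, was called at a log2 ratio of -0.14 (posterior 0.999).

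*Dppa2* and *Dppa4* are neighbours on chromosome 16 and encode SAP domain proteins that act as a pair and keep CpG-rich promoters free of DNA methylation. *Dppa2* (ENSMUSG00000072419.4, 48310274 to 48319513) had 1022 in state 3, 1257 in state 2, 1446 in state 1 and 1394 in the total population. *Dppa4* (ENSMUSG00000058550.14, 48283735 to 48294292) had 1100.4 in state 3, 1477 in state 2, 1594 in state 1 and 1504 in the total population. In both genes state 3 was the group apart, and the pattern of state 3 against the rest had 0.802 for *Dppa2* and 0.922 for *Dppa4*. Both fell in state 3 against state 1, *Dppa2* by 0.50 and *Dppa4* by 0.53 on the log2 scale. In state 3 against state 2 *Dppa4* fell (log2 -0.42, posterior 1.00), while *Dppa2* missed the limit (log2 -0.30, posterior 0.949). *Dppa2* was called there at 0.90, where 9.62% of all genes were called. State 2 against state 1 was called for neither, with a log2 ratio of -0.20 for *Dppa2* and -0.11 for *Dppa4*.

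*Dppa5a* (ENSMUSG00000060461.5, chromosome 9, 78367052 to 78368199), a KH-type RNA-binding protein, had 3961 in state 3, 7939 in state 2, 10711 in state 1 and 8802 in the total population. State 3 stood well below the other groups, at 37.0% of state 1. It fell in state 3 against state 2 and in state 3 against state 1 (log2 -1.43), each with a posterior of 1.00. State 2 against state 1 was not called (log2 -0.43, posterior 0.883), at nearly the same ratio as *Pou5f1*. Of 4 other measured Dppa and KH-family genes, 2 fell and 0 rose in state 3 relative to state 1, where 20.4% of all genes were called, 9.01% as lower. *Ooep*, a KH-domain relative expressed in oocytes, fell to 125 in state 3, against 702 in state 1 (log2 -2.48). *Dppa3*, a maternal factor of another family that protects methylation marks, fell to 26.5 in state 3, against 162 in state 1 (log2 -2.57).

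*Tdgf1* (ENSMUSG00000032494.12, chromosome 9, 110939608 to 110946158) encodes Cripto, the membrane-anchored co-receptor through which Nodal signals. It had 6630.1 in state 3, 7247 in state 2, 6956 in state 1 and 6902 in the total population. The groups lay within 1.09-fold over the sorted states, with state 2 the highest, and the model gave 0.982 to equal groups. The log2 ratio for state 3 against state 1 was -0.07 (posterior 0.0176). The pseudogenes *Tdgf1-ps1* and *Tdgf1-ps2* were listed at 251 and 5.90 in state 3 and at 293 and 2.89 in state 1. How reads shared with these copies were counted is not stated, and their part in the *Tdgf1* value was not tested.

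*L1td1* (ENSMUSG00000087166.9, chromosome 4, 98726754 to 98738486) encodes an RNA-binding protein derived from a LINE-1 element. It had 7258 in state 3, 8748 in state 2, 8774 in state 1 and 9771 in the total population. State 2 and state 1 were alike in value, and *L1td1* was the only gene of the 10 for which the total population lay outside the range of the sorted states. The log2 ratio of -0.27 for state 3 against state 1 was not called (posterior 0.470), and 0.530 fell on equal groups and 0.436 on state 3 against the rest.

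**Figure D2:**
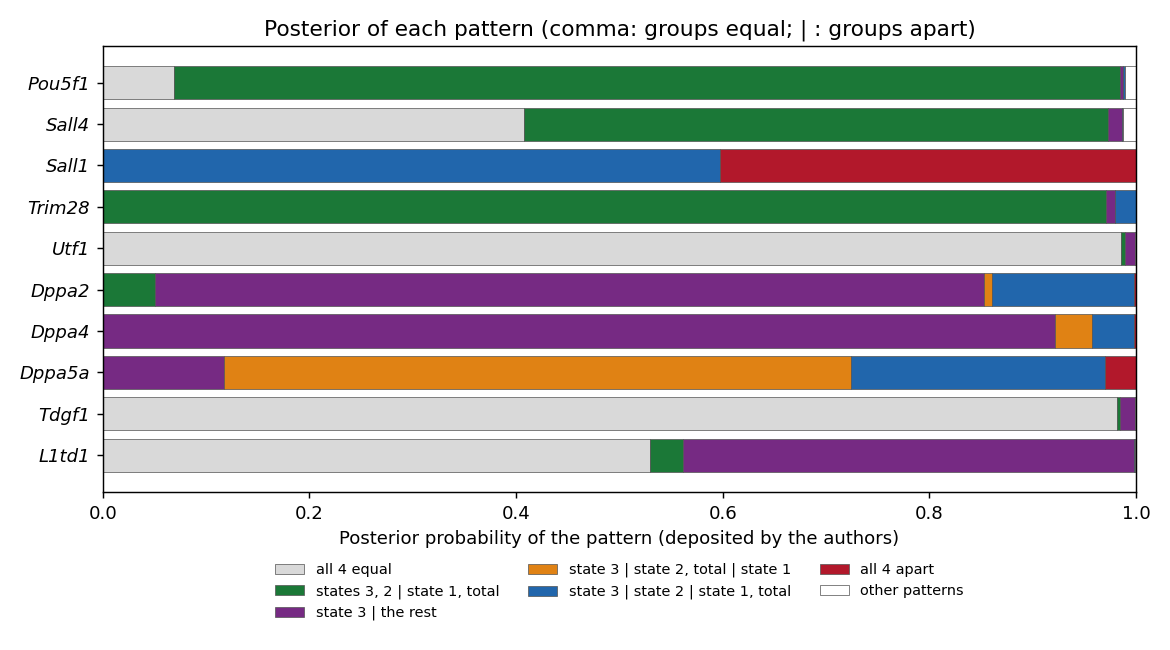
Posterior probability (horizontal axis, 0 to 1) that the authors' model gave to each pattern of equal and unequal groups, for each of the 10 genes (rows); groups joined by a comma are equal and groups parted by a bar differ. *Utf1* and *Tdgf1* lie almost wholly in the pattern of no difference (0.985 and 0.982), *Trim28* and *Pou5f1* in the pattern that parts states 3 and 2 from state 1 and the total population (0.971 and 0.915), and *Dppa4* in the pattern that sets state 3 apart (0.922).

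The 10 genes thus fell under 5 favoured patterns, but only those of *Trim28*, *Utf1* and *Tdgf1* had a posterior of at least 0.95. For *Pou5f1* (0.915), *Sall4* (0.565) and *Trim28* (0.971) state 3 was equal to state 2 and apart from state 1 and the total population. For *Dppa2* (0.802) and *Dppa4* (0.922) state 3 was apart from all other groups. For *Utf1* (0.985), *Tdgf1* (0.982) and *L1td1* (0.530) all groups were equal. For *Sall1* (0.598) state 3, state 2 and state 1 were each apart, with the total population equal to state 1. For *Dppa5a* (0.606) the same states were apart, with the total population equal to state 2. The value of state 2 was also placed on the log2 distance from state 1 (0) to state 3 (1). It lay at 0.61 for *Trim28*, 0.48 for *Sall1*, 0.40 for *Dppa2*, 0.30 for *Dppa5a* and 0.21 for *Dppa4*. Only *Sall1* had both steps called. State 2 was not called apart from state 1 for *Dppa2*, *Dppa5a* and *Dppa4* (posteriors 0.198, 0.883 and 0.0782). For *Trim28* it was not called apart from state 3 (0.0293), so these positions are descriptions of the values only.

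State 2 set beside state 1 parts cells sorted as low and high for Nanog among those sorted as high for Sox2. *Sox2* RNA was itself lower in state 2 (log2 -0.39, posterior 0.996), so this comparison does not isolate Nanog. Of the 10 genes, 2 fell (*Sall1* and *Trim28*), 0 rose and 8 were not called, where 13.4% of all genes were called, 7.11% as higher and 6.33% as lower. State 3 set beside state 2 parts cells sorted as low and high for Sox2 among those sorted as low for Nanog. *Nanog* RNA was itself lower in state 3 (log2 -0.76, posterior 1.00), so this comparison does not isolate Sox2. Here 3 fell (*Sall1*, *Dppa4* and *Dppa5a*), 0 rose and 7 were not called, where 8.59% of all genes were called, 5.41% as higher and 3.19% as lower. The ends of the sort are state 3 and state 1. Between them 5 fell (*Sall1*, *Dppa2*, *Dppa4*, *Dppa5a* and *Trim28*), 0 rose and 5 were not called, where 20.4% of all genes were called, 11.4% as higher and 9.01% as lower.

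Calls are more frequent among abundant genes, and all 10 are abundant. Among the 3300 genes with a mean of at least 1000, a limit added after the data were seen, 30.5% were called in state 2 relative to state 1, 19.5% as lower. In state 3 relative to state 2 it was 18.8%, 10.1% as lower, and in state 3 relative to state 1 it was 43.5%, 26.5% as lower. In state 2 relative to state 1, 2 of the 10 genes were called lower, close to the share of abundant genes called lower. In state 3 relative to state 2 it was 3 of 10, and in state 3 relative to state 1 it was 5 of 10, both above the share of abundant genes called lower; these differences in share were not tested. Their median log2 ratio of state 2 to state 1 was -0.30, where that of the abundant genes was -0.06. That of state 3 to state 2 was -0.29, where the abundant genes had -0.05, and that of state 3 to state 1 was -0.50, where they had -0.10. The median over all genes was 0.0 in each. These comparisons share groups and are not independent of each other.

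**Figure D3:**
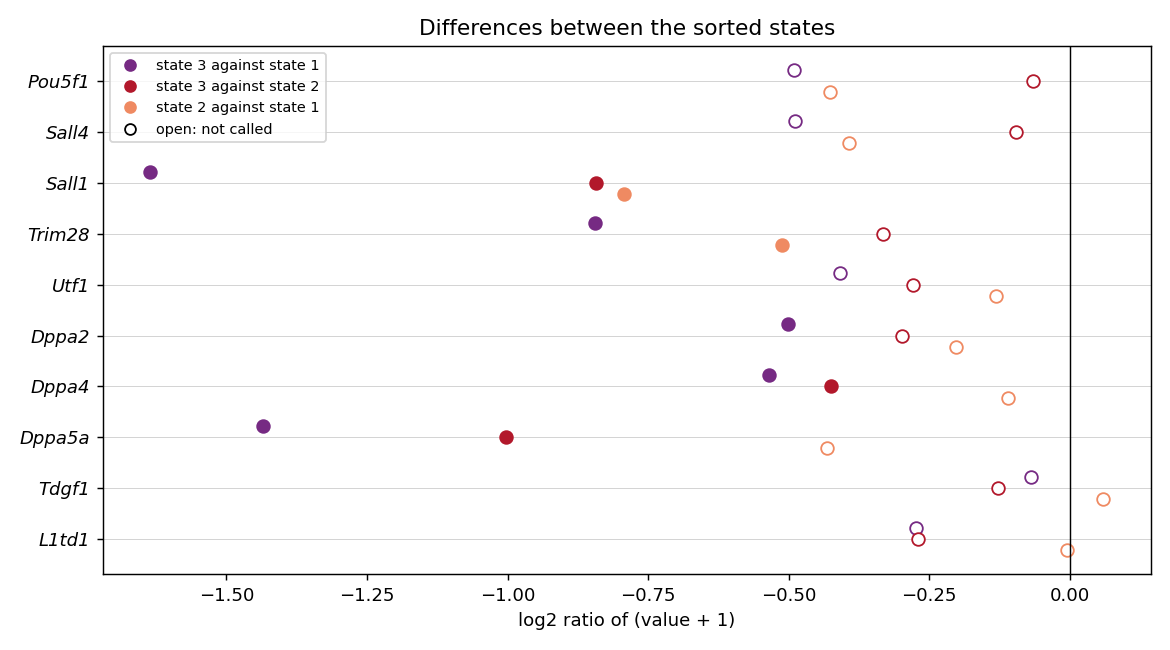
Log2 ratio of the value plus 1 (horizontal axis) of the 10 genes (rows) in state 3 over state 1, in state 3 over state 2 and in state 2 over state 1; filled points were called and open points were not. Every point but that of *Tdgf1* for state 2 over state 1 (0.06) lies below 0, though that of *L1td1* there changes sign when columns are scaled to equal totals, and the called ratios run from -0.42 for *Dppa4* to -1.64 for *Sall1*.

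Set beside the unsorted total population, state 3 had 5 of the 10 genes lower, the same as relative to state 1, and 0 higher, where 19.1% of all genes were called, 10.8% as higher and 8.32% as lower. State 2 had *Sall1* (log2 -0.65) and *Trim28* (log2 -0.35) lower and 0 higher, where 11.1% were called, 5.82% as higher and 5.3% as lower. State 1 had 0 of the 10 called in the EBSeq posteriors, where 1.98% of all genes were called, 0.707% as higher and 1.27% as lower. At the limit of 0.90 *Pou5f1* was also lower in state 3 (20.5% of all genes called) and in state 2 (12.4% called), and state 1 still had 0 of the 10 called (2.32% called). Of the 10 genes, 9 had a higher value in state 1 than in the total population, by up to 0.28 on the log2 scale for *Dppa5a*, though that of *Tdgf1* was lower when columns were scaled to equal totals. The sources used here do not say how many cells of each state the total population held.

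Genes around the 10 in the pluripotency network were read from lists, and their calls in state 3 relative to state 1 stand beside 11.4% of all genes called higher and 9.01% called lower. Of 20 other genes shared by pluripotent states, 5 rose and 8 fell in state 3 against state 1 (median log2 -0.36). *Podxl*, a surface sialomucin, rose to 3227 in state 3, against 532 in state 1. *Mybl2*, a cell cycle factor, fell to 3363 in state 3, against 12796 in state 1 (log2 -1.93). The other rises were *Dnmt3b*, *Cdh1*, *Epcam* and *Lin28b*, and *Sox2*, a sort gene, was among the falls. All 14 naive genes fell (median log2 -3.20), *Nanog* among them, with *Prdm14* at -4.11 and *Esrrb* at -3.93. Of 10 primed genes, 8 rose, *Otx2* fell and *Dnmt3a* was not called (median log2 2.18), with *Fgf5*, a growth factor of the primed epiblast, at 4.97. The ratios of the 10 genes, from -1.64 to -0.07, overlap with those of single genes of either list, such as *Klf5* at -0.82 and *Otx2* at -1.06.

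Protein partners of Oct4 outside NuRD fell in 6 of 14 cases with 0 rises (median log2 -0.32), where 43.5% of abundant genes were called, 26.5% as lower. The share of partners called in either direction is near that of abundant genes and is no result about the partners. All of their calls were lower, a share above the 26.5% of abundant genes called lower, and this difference was not tested. *Rcor2*, a corepressor subunit, fell to 932 in state 3, against 2673 in state 1 (log2 -1.52). *Parp1*, a poly(ADP-ribose) polymerase, fell to 8671 in state 3, against 16117 in state 1 (log2 -0.89), and *Zfp462*, a zinc finger protein, fell by 0.48. NuRD, the complex to which Sall proteins bind, had 3 rises and 3 falls among 13 subunits (median log2 0.06). *Chd3*, *Mbd2* and *Mta1* rose, by 0.83 for *Chd3*, and *Mta3*, *Hdac1* and *Rbbp4* fell, with *Mta3* at -0.72. Partners of Trim28 in silencing fell in 8 of 15 cases with 0 rises (median log2 -0.40), beside the same 43.5% of abundant genes called and 26.5% called lower. *Zfp57*, a KRAB zinc finger protein that guards imprinted loci, fell to 1014 in state 3, against 4718 in state 1 (log2 -2.22). *Atf7ip*, a cofactor of Setdb1, fell by 1.02 and *Smarcad1*, a remodeller, by 0.79.

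Genes known to carry Oct4-Sox2 enhancer elements were called in 7 of 7 cases in state 3 against state 1, with 6 lower and 1 higher (median log2 -1.67). *Zfp42*, a zinc finger marker of naive cells, fell to 704.7 in state 3, against 4343 in state 1 (log2 -2.62). *Lefty1*, an inhibitor of Nodal, rose to 2824 in state 3, against 272 in state 1 (log2 3.37). The list holds the sort genes *Nanog* and *Sox2*. It leaves out *Pou5f1* itself and *Utf1*, the known target of Oct4 and Sox2 named above, and neither was called (posteriors 0.931 and 0.0144). Among abundant genes 43.5% were called, 26.5% as lower. Trophectoderm genes, a fate that Oct4 keeps silent, rose in 6 of 9 cases and fell in 1, *Tfap2c* (median log2 3.64). *Cdx2* rose to 400.1 in state 3, against 4.18 in state 1, and *Hand1* to 56.2 in state 3, against 0.65 in state 1.

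The Cripto pathway was read from its own list. Of 16 measured genes of Nodal ligands, receptors, processing enzymes and inhibitors, 10 rose and 2 fell in state 3 against state 1 (median log2 0.60). *Lefty1* and *Lefty2*, feedback inhibitors, rose by 3.37 and 2.89 on the log2 scale. *Furin*, a protease that cleaves the Nodal precursor, rose to 1509 in state 3, against 378 in state 1 (log2 1.99). The falls were *Pcsk6*, another convertase (log2 -1.12), and *Acvr1b*, a type I receptor (log2 -0.62). *Nodal* itself had 832 in state 3 and 857 in state 1 and was not called.

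Among RNA-binding genes listed beside *L1td1*, 2 of 6 rose in state 3 against state 1 and 0 fell. *Lin28b*, a suppressor of let-7 microRNA, rose to 1492 in state 3, against 993 in state 1 (log2 0.59), and *Igf2bp3*, an mRNA-binding protein, rose by 0.22. Of 13 other POU genes, 2 rose and 1 fell. *Pou3f1*, the Oct6 factor of primed cells, rose to 1947 in state 3, against 151 in state 1 (log2 3.68), and *Pou6f1* rose by 1.66. *Pou2f1*, the widely expressed Oct1 factor, fell by 0.40. The 14 measured 2-cell genes that Dppa2 and Dppa4 control were each listed at 2.94 or less in every group, close to the 0.84 to 1.08 that 3 reads are worth. The highest by mean, *Zscan4f* and *Usp17le*, had 0.75 and 1.48 in state 3 and 1.45 and 1.93 in state 1. A difference was not detectable at this depth, and their near-identical copies make the values uncertain.

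**Figure D4:**
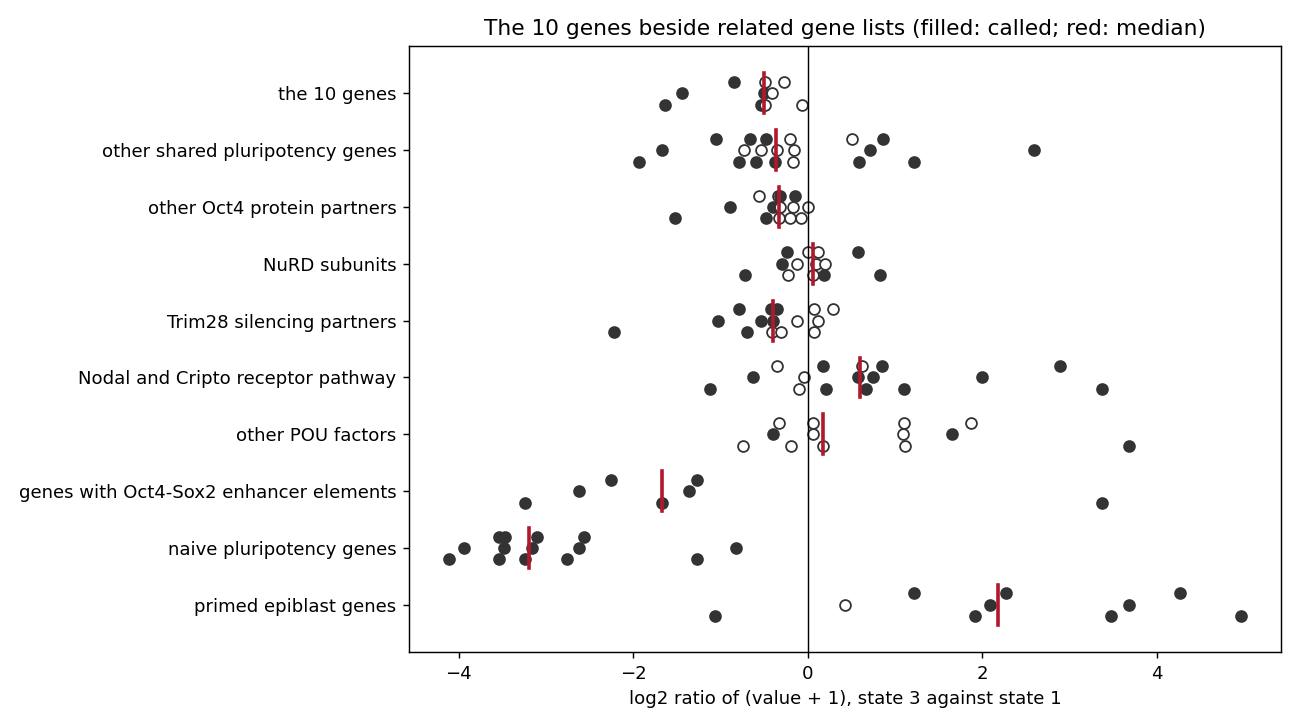
Log2 ratio of the value plus 1 for state 3 against state 1 (horizontal axis) of each measured gene in 10 lists (rows); filled points were called, open points were not, and the red bar is the median. The median of the 10 genes (-0.50) lies between that of the naive list (-3.20) and that of the primed list (2.18), and single genes of the lists overlap. The medians of the genes with a mean of at least 1000 (-0.10) and of all genes (0.0) lie between them too.

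Small RNA-seq of the same states, from 8 libraries with 2 per group, covered the hairpins of miR-296 and miR-134, microRNAs described in mouse embryonic stem cells as acting on coding sequences of pluripotency factors, *Pou5f1* or its partners among them. Their mature sequences (RefSeq, GRCm38.p6) are shown with the seed, bases 2 to 8, in capitals; the 4 seeds differ.
mmu-miR-296-5p: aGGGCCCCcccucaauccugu
mmu-miR-296-3p: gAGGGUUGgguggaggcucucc
mmu-miR-134-5p: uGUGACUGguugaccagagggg
mmu-miR-134-3p: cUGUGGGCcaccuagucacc

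The hairpin of miR-296 (arms on chromosome 2) had 1490.2 in state 3, 3478 in state 2, 5321 in state 1 and 4459.9 in the total population, and fell in state 3 against state 1 (log2 -1.84), where 20.5% of 761 hairpins were called. The hairpin of miR-134 (arms on chromosome 12) had 50.4 in state 3, 111 in state 2, 95.7 in state 1 and 116 in the total population, and fell in state 3 against state 1 (log2 -0.91). State 3 was the lowest group for both, as it was for the column totals given below and for the 10 genes in the RNA-seq table. The labels name replicates A, B and C for RNA-seq and D and E for small RNA, so they do not mark the assays as sharing replicates. The hairpin of miR-145a, a microRNA described in human embryonic stem cells as acting on OCT4, had 6.61 in state 3 and 29.3 in state 1 and fell (log2 -1.99). The hairpin of miR-470, sought by name from the same list, had no matching entry. The column totals of this table were 2.61 M value units in state 3, 3.43 M in state 2, 5.13 M in state 1 and 4.15 M in the total population, a log2 ratio of state 3 to state 1 of -0.97. The ratio of miR-134 is no larger than that of the totals, while those of miR-296 and miR-145a are. The part of the totals in these calls was not tested, and the table does not separate the arms.

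Fragments of all 10 genes were listed in the small RNA table at low values, between 4.73 (*Dppa4* in state 3) and 226 (*Trim28* in state 3). None of the 10 was called in state 3 relative to state 1, where 1.63% of all features were. *Pou5f1* had 74.6 in state 3, 81.0 in state 2, 86.8 in state 1 and 101 in the total population, with a posterior for any difference of 4.9e-10. *Sall4* had 49.2 in state 3, 39.1 in state 2, 20.2 in state 1 and 39.1 in the total population, opposite in order to its RNA-seq values and not called (1.19e-06).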

How the data were processed

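RNA-seq (12 libraries) and small RNA-seq (8 libraries) were made from the sorted cells, per the labels' protocols. The tools STAR 2.4.1d and RSEM 1.2.30 and the genome mm10 (GRCm38) are named in the submitters' processing notes. In both tables the authors deposited a normalized signal per feature and group, with libraries merged; the sources used here do not state the scaling. They also deposited a score for each of 15 patterns, the EBSeq posterior probability.

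Scores were summed over the patterns that part a pair of groups, and a difference was called at 0.95. The table numbers its patterns without naming the groups, and they were read in EBSeq's order over the columns. This order was checked in 1453 well-resolved genes: groups that a gene's leading pattern joins were nearer in value than groups it parts in 100.0% of them, against 96.6% with state 1 and the total population exchanged. Python 3.11.15, numpy 2.4.6 and pandas 2.3.3 were used, and the sums were tested on simulated data.

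The members and lists were chosen with earlier results of these data known. Named genes were the 10 members, the sort genes and, per list, up to 3 called genes with the largest ratio of state 3 to state 1; genes named for a small count or as examples outside this rule were chosen after their values were seen. Genes most like *Pou5f1* were sought among those whose mean reached 5 parts per M of the column total, without predicted genes, pseudogenes and small RNA classes. Nothing in the labels ties libraries to separate cultures, and the spread that the posteriors weigh may be technical. Coordinates are from RefSeq (GRCm38.p6), matched by symbol for all 10 members. Transcript lengths and proteins were not used here. The libraries mark strand; whether strand was used in counting is not stated.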

Additional observations from a re-analysis of the deposited data

How the results depend on the processing

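A posterior limit of 0.90 in place of 0.95 adds *Pou5f1* to the genes called lower in state 2 relative to state 1 (3 in place of 2) and in state 3 relative to state 1 (6 in place of 5), and adds *Dppa2* between states 3 and 2 (4 in place of 3). A limit of 0.99 and the exchanged order of state 1 and the total population left the number of members called as it was in each of the 6 comparisons. The same members were called. The exchange could not change state 3 against state 2 or state 1 against the total population. In the other comparisons it only swaps the posteriors of state 1 with those of the total population. A minimum mean of 5 could not change the members called, since all 10 were listed at 1022 or more in every group. No called ratio changed sign with median-ratio scaling or column-total scaling, and no ratio moved by more than 0.0675. Nor did one change sign with pseudocounts of 0.1 or 10, which at values this high could hardly move a ratio. Under column-total scaling the uncalled ratios of *L1td1* (state 2 against state 1) and *Tdgf1* (state 1 against the total population) changed sign. With a minimum mean of 1000, added after seeing the data, the number of all genes called was 1005 between states 2 and 1, 620 between states 3 and 2, and 1437 between states 3 and 1. Relative to the total population it was 180 in state 1, 845 in state 2 and 1347 in state 3.

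No paired analysis was possible because the tables hold 1 value per group and no column of a single library. Leaving out each replicate was not run for the same reason, and whether any call rests on 1 library could not be checked.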

Other observations

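Outside *Pou5f1*, the profiles nearest to a member over the 4 groups were those of *Abtb1* and *Baz2a* for *Trim28* (0.00570 and 0.0133), of *Eri2* and *Hells* for *L1td1* (0.0117 and 0.0139) and of *Pycard* and *Trh* for *Dppa5a* (0.0389 and 0.0606), chosen after their values were seen.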
